A study of Homo sapiens with 6 samples.

Results

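Heat shock proteins and their partners form the cell's main set of protein-folding factors, and their transcripts were examined in NB4 cells, an established human acute promyelocytic leukemia cell line, after treatment with Tanshinone I (Tan I), a lipophilic compound of the herb Dan-shen. The members were the rows of the deposited gene table whose symbols name HSP70 and HSP110 (HSPA, HSPH1), HSP90 (HSP90AA1, HSP90AB1, HSP90B1, TRAP1), small heat shock (HSPB), HSP60 and HSP10 (HSPD1, HSPE1), DNAJ (DNAJA, DNAJB, DNAJC), TRiC (CCT and TCP1), BAG and HSPBP1 or heat shock factor (HSF) genes. This symbol rule gave 81 rows with 80 symbols out of 18625 genes, and 79 of the rows had a mean of at least 10 normalized counts over the libraries and were tested. One group received 10 μM Tan I and the other DMSO, the solvent, both for 3 days, and RNA-seq libraries were made from 3 samples of each group. The labels do not say that the 3 samples came from separate cultures, so the p-values measure the spread between these samples, which may be technical. Values are given as normalized counts (reads of a gene divided by the size factor of its library) and come from bulk RNA, in which fewer cells of a type and less RNA per cell cannot be told apart.

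Depth was 25356503 to 31679138 reads per DMSO library and 21502760 to 24298627 per Tan I library over the genes of the table. Summed over the member rows, the normalized counts were lowest in DMSO replicate 2, at 395287, and highest in Tan I replicate 2, at 597149. The libraries did not separate by treatment along the first principal component of all tested genes, which held 70.8% of the variance. DMSO replicates 1, 2 and 3 had scores of -48.0, 41.1 and -26.7 on it, and Tan I replicates 1, 2 and 3 had scores of -46.8, 8.65 and 71.6. Of 6 promyelocyte markers, 5 were listed, and their summed normalized count ran from 70959 to 76923 in DMSO and from 41825 to 50123 in Tan I. MPO, the myeloperoxidase of primary granules, made up most of this sum, at 60389 to 64107 in DMSO and 33279 to 39450 in Tan I. The other 4 (AZU1, PRTN3, CTSG and CD33) summed to 10570 to 12816 in DMSO and 8546 to 10826 in Tan I, so the groups overlapped in this sum. By single gene, CTSG ran from 1536 to 2392 in DMSO and from 839 to 1496 in Tan I, without overlap. The groups overlapped for AZU1, PRTN3 and CD33. T cell markers summed to 320 to 479 in DMSO and 354 to 620 in Tan I, and B cell markers (2 of 3 listed) to 170 to 179 and 159 to 172. The single listed erythroid marker, ALAS2, ran from 15.4 to 51.3 in DMSO and from 10.7 to 28.3 in Tan I, and the single listed epithelial marker, EPCAM, from 144 to 214 and from 178 to 253. No listed marker was at 0. The part of these marker levels in the results below was not tested.

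HSP70 proteins bind exposed stretches of unfolded chains in a cycle driven by ATP, DNAJ proteins deliver the chains and start ATP hydrolysis, and BAG, HSPBP1 and HSP110 proteins help release the nucleotide. HSP90 acts later on signaling proteins, while TRiC and the mitochondrial HSP60 and HSP10 enclose chains in a chamber. Separate members serve the cytosol, the mitochondria and the endoplasmic reticulum (ER), where HSPA5 (BiP) and HSP90B1 (GRP94) are the main chaperones and are induced by the unfolded protein response, and the cytosolic members are induced mainly by HSF1, the heat shock factor.

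Tan I treatment was accompanied by higher transcript levels of 5 members, HSPA5, HSP90B1, DNAJB11, DNAJC3 and DNAJC25, by the study's thresholds, an unadjusted p (here from limma) no higher than 0.05 and a log2 fold change of 0.25 or more in size. These 5 were 6.33% of the 79 tested members, beside 1.32% of all 16887 tested genes called higher. No member was called lower, beside 1.1% of all genes. After Benjamini-Hochberg adjustment over all tested genes no member passed in limma, and neither did any other gene (0.0%), and every member had an adjusted p of 0.999. In edgeR and DESeq2, no member passed after adjustment either, whereas 5 and 6 members passed without it. The groups did not overlap for 14 members. In 12 of them (15.2%) every Tan I library lay above every DMSO library, beside 3.92% of all genes, and in 2 (2.53%), DNAJC11 and DNAJC18, below, beside 3.97% of all genes.

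Across the 79 tested members, 55 had a positive and 24 a negative log2 fold change, and the median was 0.11. Over all tested genes the median was -0.0016, and 49.7% were positive. The members' median was 0.053 after quantile normalization and 0.053 after rescaling each library to the same total, 0.025 without Tan I replicate 3 and 0.17 without Tan I replicate 1. By family, the median log2 fold change was 0.12 in 11 HSP70 rows, 0.10 in 3 HSP110 genes, 0.19 in 4 HSP90 genes, 0.25 for HSPD1 and HSPE1, 0.14 in 8 TRiC subunits and 0.17 in 2 small heat shock genes. It was 0.04 in 4 DNAJA, 0.05 in 10 DNAJB and 0.04 in 25 DNAJC genes, 0.12 in 7 BAG and HSPBP1 genes and 0.15 in 3 HSF genes. After quantile normalization the medians were 0.021 for HSP110, 0.048 for HSP90 with 2 of 4 genes positive, and 0.050 for TRiC. With the first principal component as a term, that of the BAG and HSPBP1 genes was 0.0052, with 4 positive and 3 negative. The DNAJC genes spread on both sides of 0, with 14 positive and 11 negative values. After rescaling to the same total, 10 DNAJC genes were positive and 15 negative, with a median of -0.020.

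**Figure D1:**
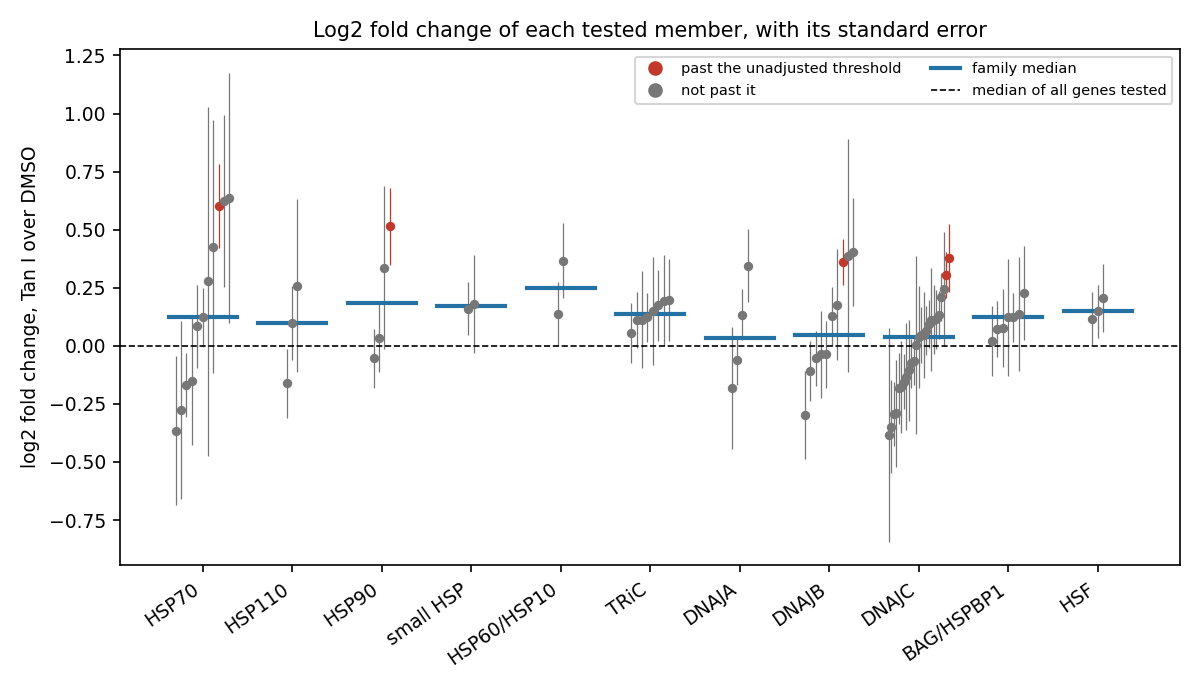
Each point is 1 tested member with its log2 fold change (Tan I relative to DMSO) on the log2(normalized count + 1) scale, with its standard error as a vertical line, grouped by family along the horizontal axis. Horizontal bars are family medians, the dashed line is the median of all tested genes, and the 5 members past the unadjusted threshold, all positive, are in red. Among the highest HSP70 points, HSPA1B at 0.64 and HSPA8 at 0.62 have standard errors of 0.54 and 0.37, against 0.18 for HSPA5 at 0.60.

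The members past the threshold were mostly residents of the ER, namely 4 of the 5. HSPA5 (ENSG00000044574, chr9:125234853-125241382, minus strand, 8 exons) encodes BiP, the HSP70 of the ER lumen. HSP90B1 (ENSG00000166598, chr12:103930107-103953931, plus strand, 18 exons) encodes GRP94, the HSP90 of the ER lumen. DNAJB11 (ENSG00000090520, chr3:186567403-186585800, plus strand, 10 exons) and DNAJC3 (ENSG00000102580, chr13:95677139-95794988, plus strand, 12 exons) encode ER-resident DNAJ partners of BiP. Positions are from GENCODE release 44 on GRCh38. The grouping of members by compartment was made after their values had been seen.

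The promoters of HSPA5 and HSP90B1 are shown because both hold the ER stress element, the DNA letters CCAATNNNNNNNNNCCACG, searched on both strands in the 250 bases before the RefSeq start (build GRCh38.p14). This element was present in 22 of 27305 RefSeq promoters of this length (0.0806%) and in 2 of the 71 member promoters that could be matched by symbol (2.82%). Capitals mark the matches, which do not overlap each other.
HSPA5 promoter, chr9:125241344-125241593, minus strand: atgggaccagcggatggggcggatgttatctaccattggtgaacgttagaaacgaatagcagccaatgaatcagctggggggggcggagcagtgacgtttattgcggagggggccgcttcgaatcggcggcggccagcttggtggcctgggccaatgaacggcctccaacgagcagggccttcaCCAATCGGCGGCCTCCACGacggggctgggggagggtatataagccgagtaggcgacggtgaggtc
HSP90B1 promoter, chr12:103930160-103930409, plus strand: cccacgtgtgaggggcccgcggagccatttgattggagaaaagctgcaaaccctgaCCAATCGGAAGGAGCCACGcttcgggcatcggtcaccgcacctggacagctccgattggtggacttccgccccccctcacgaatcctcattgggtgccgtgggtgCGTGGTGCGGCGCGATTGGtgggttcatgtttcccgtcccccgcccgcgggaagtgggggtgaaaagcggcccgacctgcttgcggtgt

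The match in the HSPA5 promoter began 66 bases and ended 48 bases before the start. HSP90B1 held 2 matches, the farther beginning 194 bases and the nearer ending 71 bases before the start, with the nearer on the opposite strand. No match to these letters lay in the windows of DNAJB11, DNAJC3 or DNAJC25. The RefSeq starts are not always the GENCODE ones. The windows of HSP90B1 and DNAJB11 lie within the GENCODE positions of these genes, and that of HSPA5 overlaps its own. A match is a stretch of letters and not a measured binding site.

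HSPA5 was present at 42433, 38105 and 47438 normalized counts in DMSO replicates 1, 2 and 3 and at 54446, 67643 and 72691 in Tan I replicates 1, 2 and 3. All Tan I libraries were above all DMSO libraries, and Tan I replicate 1 was the lowest of its group. The means were 42659 ± 4670 (SD, n = 3) and 64927 ± 9421 (SD, n = 3), and the log2 fold change was 0.60 ± 0.18 (SE), with a 95% interval of 0.18 to 1.02, that is 1.52-fold on the log2(normalized count + 1) scale. The exact permutation p was 0.1, the smallest that 3 against 3 libraries can give.

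HSP90B1 was present at 39652, 37935 and 41094 normalized counts with DMSO and at 48487, 57044 and 65059 with Tan I. The groups were again apart, and the DMSO libraries lay closer together (39560 ± 1582, SD, n = 3) than the Tan I libraries (56863 ± 8287, SD, n = 3). Its log2 fold change was 0.51 ± 0.17 (SE), with a 95% interval of 0.13 to 0.90. HSP90B1 shares 14.8% of its exon bases with other annotated genes, MIR3652 and UQCC6, and the strand setting of the counting is not given in the sources used here.

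DNAJB11 showed little scatter within each group. Its normalized counts were 1422, 1460 and 1454 with DMSO and 1802, 1822 and 1946 with Tan I, with means of 1445 ± 20.5 (SD, n = 3) and 1857 ± 77.7 (SD, n = 3). The lowest Tan I library exceeded the highest DMSO library by more than the whole range of either group. Its log2 fold change was 0.36 ± 0.10 (SE), with a 95% interval of 0.13 to 0.59. An annotated gene without a symbol shares 27.5% of its exon bases.

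DNAJC3, which also encodes an inhibitor of the eIF2-alpha kinases, had 1983, 1867 and 1875 normalized counts with DMSO and 2280, 2426 and 2363 with Tan I. Its log2 fold change was 0.30 ± 0.10 (SE), with a 95% interval of 0.07 to 0.54. DNAJC25 (ENSG00000059769, chr9:111631334-111654351, plus strand, 4 exons) had 596, 590 and 634 normalized counts with DMSO and 658, 828 and 898 with Tan I, so that Tan I replicate 1 lay just above the DMSO libraries. Its log2 fold change was 0.38 ± 0.15 (SE), with a 95% interval of 0.04 to 0.72, and it shares 15.7% of its exon bases with the read-through gene DNAJC25-GNG10.

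The calls were not equally firm when single libraries were left out. DNAJB11 passed the unadjusted threshold under all 17 alternative settings, HSPA5 under 16, HSP90B1 under 15, DNAJC3 under 13 and DNAJC25 under 11, and none changed direction. Without Tan I replicate 2, HSPA5 (0.57), HSP90B1 (0.51), DNAJC3 (0.28) and DNAJC25 (0.34) no longer passed, HSP90B1 did not pass without DMSO replicate 2 (0.48), and DNAJC3 did not pass without DMSO replicate 3 (0.29). DNAJC25 did not pass without DMSO replicate 1 (0.36), 2 (0.36) or 3 (0.41) nor without Tan I replicate 3 (0.28), these values being log2 fold changes. MPO and CTSG were lower in all 3 Tan I libraries and thus moved with the same groups, whereas AZU1, PRTN3 and CD33 overlapped between them.

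**Figure D2:**
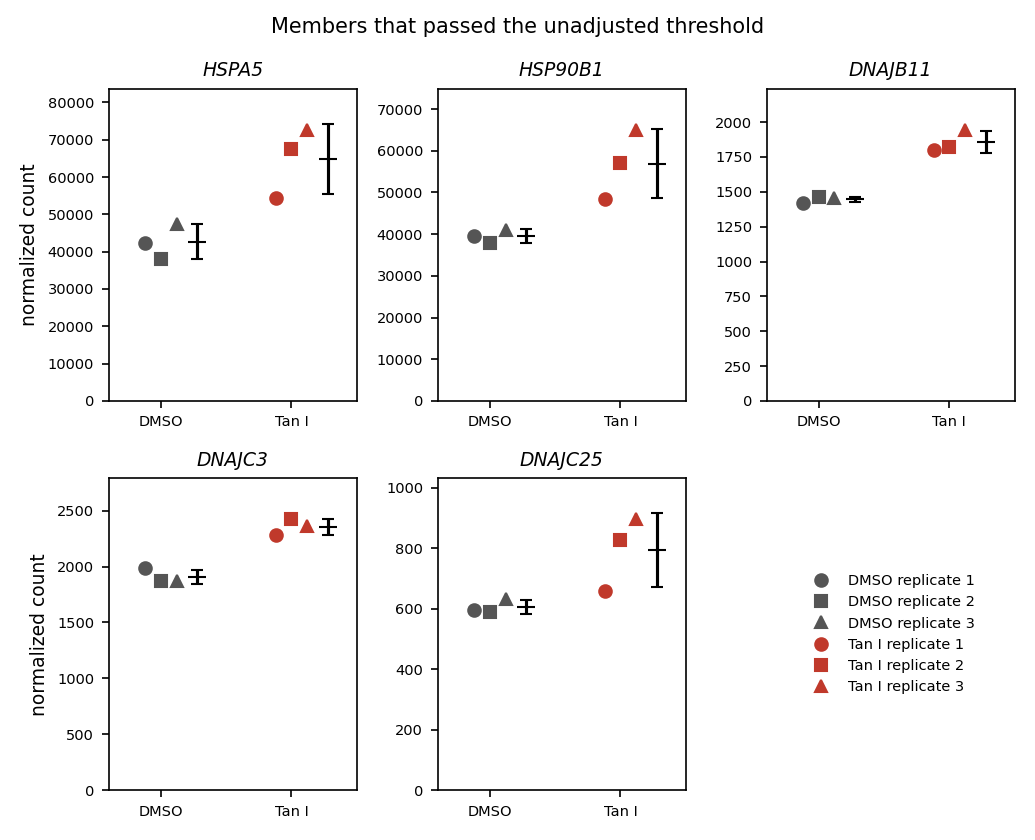
Normalized counts per library (vertical axes, from 0) of the 5 members past the unadjusted threshold, with DMSO in gray and Tan I in red, and the mean ± SD of the 3 libraries beside the points. Every Tan I point lies above every DMSO point of the same gene, with the gap smallest for DNAJC25 (634 against 658).

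The other ER residents grouped here did not pass. DNAJB9, a DNAJ partner of BiP induced by the unfolded protein response, had 432, 287 and 474 normalized counts with DMSO and 490, 645 and 432 with Tan I. The groups overlapped, since DMSO replicate 3 lay above Tan I replicate 3, and the log2 fold change was 0.40 ± 0.23 (SE). It was 0.19 without DMSO replicate 2 and 0.24 without Tan I replicate 2. HSPA13, DNAJC1 and DNAJC10 had log2 fold changes of -0.17, 0.04 and 0.05. Of the 8 ER members, a group put together after the values had been seen, 4 were called, all higher, beside 1.32% of all genes, and the median log2 fold change of the 8 was 0.33. This group leaves out DNAJB12, DNAJB14, DNAJC14, DNAJC16 and DNAJC18, whose proteins lie in the ER membrane. Their log2 fold changes were -0.04, -0.05, -0.18, -0.18 and -0.15, and none passed, so the values of the group do not describe all ER members.

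A group of 7 cytosolic heat shock genes, most of them classically induced by heat, gave some of the widest spreads among the members. These spreads lay mainly within the DMSO group. HSPA1A, HSPA1B, HSPA6, HSPA8, HSPH1, HSP90AA1 and DNAJB1 all had a positive log2 fold change in the full set of libraries, from 0.26 to 0.64. None passed the test with treatment as its only term. In all 7, DMSO replicate 2 was the lowest of the 6 libraries. Without DMSO replicate 2, 6 of them had a negative log2 fold change and HSPA8 one of 0.19. This group was put together after the values had been seen and is described without a test. It leaves out HSPB1, BAG3 and DNAJA1, also targets of HSF1, in which DMSO replicate 2 was not the lowest library. The pattern is therefore not one of all heat-induced members.

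The promoters of HSPA8 and HSPA6 are shown because they hold the heat shock element, the letters GAANNTTCNNGAA, searched in the same windows and on both strands, and that of HSPA1B because it belongs to a gene with the same library pattern and holds no match to these letters. The element was present in 120 of 27305 promoters (0.439%) and in 3 of the 71 member promoters (4.23%), those of HSPA8, HSPA6 and DNAJB6. No promoter shown here holds both elements, and capitals mark the matches.
HSPA8 promoter, chr11:123062137-123062386, minus strand: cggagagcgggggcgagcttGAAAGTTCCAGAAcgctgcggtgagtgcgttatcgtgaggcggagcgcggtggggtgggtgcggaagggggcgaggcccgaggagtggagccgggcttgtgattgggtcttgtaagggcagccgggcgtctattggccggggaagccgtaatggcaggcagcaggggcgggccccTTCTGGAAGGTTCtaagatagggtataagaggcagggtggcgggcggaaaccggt
HSPA6 promoter, chr1:161524290-161524539, plus strand: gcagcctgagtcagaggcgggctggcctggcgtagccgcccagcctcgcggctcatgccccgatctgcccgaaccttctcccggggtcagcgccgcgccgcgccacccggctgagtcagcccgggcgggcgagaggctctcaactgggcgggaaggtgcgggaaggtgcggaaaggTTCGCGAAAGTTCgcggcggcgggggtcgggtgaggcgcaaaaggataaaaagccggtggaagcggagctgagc
HSPA1B promoter, chr6:31827488-31827737, plus strand: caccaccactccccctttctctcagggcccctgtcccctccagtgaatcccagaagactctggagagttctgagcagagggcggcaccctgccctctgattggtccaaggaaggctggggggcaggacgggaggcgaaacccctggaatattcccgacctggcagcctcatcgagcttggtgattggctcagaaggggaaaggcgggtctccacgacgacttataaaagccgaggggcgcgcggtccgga

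HSPA8 held 2 matches, the farther beginning 230 bases and the nearer ending 43 bases before the start, and the match of HSPA6 began 74 bases and ended 62 bases before it. The window of HSPA8 lies within the GENCODE position of the gene. A window without a match says only that these letters are not in it.

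HSPA8 (ENSG00000109971, chr11:123057489-123063230, minus strand, 9 exons), the constitutive cytosolic HSP70, had 106231, 45489 and 119633 normalized counts with DMSO and 126567, 145883 and 114766 with Tan I. Only DMSO replicate 2 stood apart, at 2.48-fold below the mean of DMSO replicates 1 and 3 on the log2 scale, and DMSO replicate 3 lay above Tan I replicate 3. The log2 fold change was 0.62 ± 0.37 (SE), with a 95% interval of -0.24 to 1.49, and 0.19 ± 0.24 (SE) without DMSO replicate 2.

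HSPA1B (ENSG00000204388, chr6:31827738-31830254, plus strand, 1 exon), a stress-induced HSP70 gene, had 6971, 1744 and 8096 normalized counts with DMSO and 6746, 8811 and 6227 with Tan I. Its neighbor HSPA1A (ENSG00000204389, chr6:31815543-31817946, plus strand, 1 exon) followed the same order at a lower level, with 322, 85.7 and 414 with DMSO and 281, 383 and 260 with Tan I. Both had the largest standard errors of the members named here apart from HSPA6, with log2 fold changes of 0.64 ± 0.54 (SE) and 0.43 ± 0.54 (SE). Without DMSO replicate 2 these were -0.07 ± 0.19 (SE) and -0.27 ± 0.22 (SE). The transcripts are near copies, with 69.6% of the 150-base windows of HSPA1A present in HSPA1B and 66.1% of those of HSPA1B present in HSPA1A. Since reads mapping to several places were removed by the authors, the levels of both are uncertain, and HSPA1B also shares 36.6% of its exon bases with another annotated gene.

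HSPA6 (ENSG00000173110, chr1:161524540-161526894, plus strand, 1 exon), a strictly inducible HSP70 gene, had 193, 30.8 and 307 normalized counts with DMSO and 137, 158 and 153 with Tan I. The Tan I libraries lay close together and inside the DMSO range, below DMSO replicates 1 and 3 and above DMSO replicate 2. Its direction depended on the setting. The log2 fold change was 0.28 ± 0.75 (SE) with all libraries and -0.70 ± 0.24 (SE) without DMSO replicate 2, which passed the unadjusted threshold but had an adjusted p of 0.734, and it was -0.25 in edgeR and -0.25 in DESeq2. It shares 15.3% of its 150-base windows with the pseudogene HSPA7, which had 17.6 to 41.4 normalized counts.

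The remaining 3 genes of this group encode partners of HSP70 and a cytosolic HSP90. DNAJB1, the DNAJ partner of inducible HSP70, had 8637, 2503 and 10752 normalized counts with DMSO and 7642, 9763 and 6988 with Tan I. HSPH1, the inducible HSP110, had 9262, 3523 and 9558 with DMSO and 8862, 8803 and 6861 with Tan I. HSP90AA1, the inducible cytosolic HSP90, had 47045, 20834 and 50285 with DMSO and 51512, 52262 and 36858 with Tan I. In all 3 every Tan I library lay above DMSO replicate 2 and Tan I replicate 3 was the lowest of its group. Their log2 fold changes were 0.39 ± 0.50 (SE), 0.26 ± 0.37 (SE) and 0.34 ± 0.35 (SE), and -0.26, -0.21 and -0.07 without DMSO replicate 2.

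DMSO replicate 2 was lower than the mean of DMSO replicates 1 and 3 by 7.68-fold for HSPA6, 4.30-fold for HSPA1B, 4.22-fold for HSPA1A, 3.85-fold for DNAJB1, 2.67-fold for HSPH1, 2.48-fold for HSPA8 and 2.33-fold for HSP90AA1. In 5 members, HSPA1A, HSPA1B, HSPA6, HSPA8 and DNAJB1, it was at or under 0.5 times the lowest other library, which is 6.33% of the tested members beside 1.03% of all tested genes. It was the lowest library in 19 tested members (24.1%), beside 16.0% of all genes. DNAJB6, the third member with a heat shock element, had 3174, 2511 and 2897 normalized counts with DMSO and 3368, 3031 and 2947 with Tan I. Not all abundant members shared this pattern. HSP90AB1 and HSPD1 differed between DMSO replicate 2 and the other DMSO libraries by -0.03 and 0.11 on the log2 scale. DMSO replicate 2 was also the lowest library, though less far below the others, for the called members HSPA5, HSP90B1, DNAJC3 and DNAJC25. Without that library, their log2 fold changes were 0.52, 0.48, 0.29 and 0.36.

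**Figure D3:**
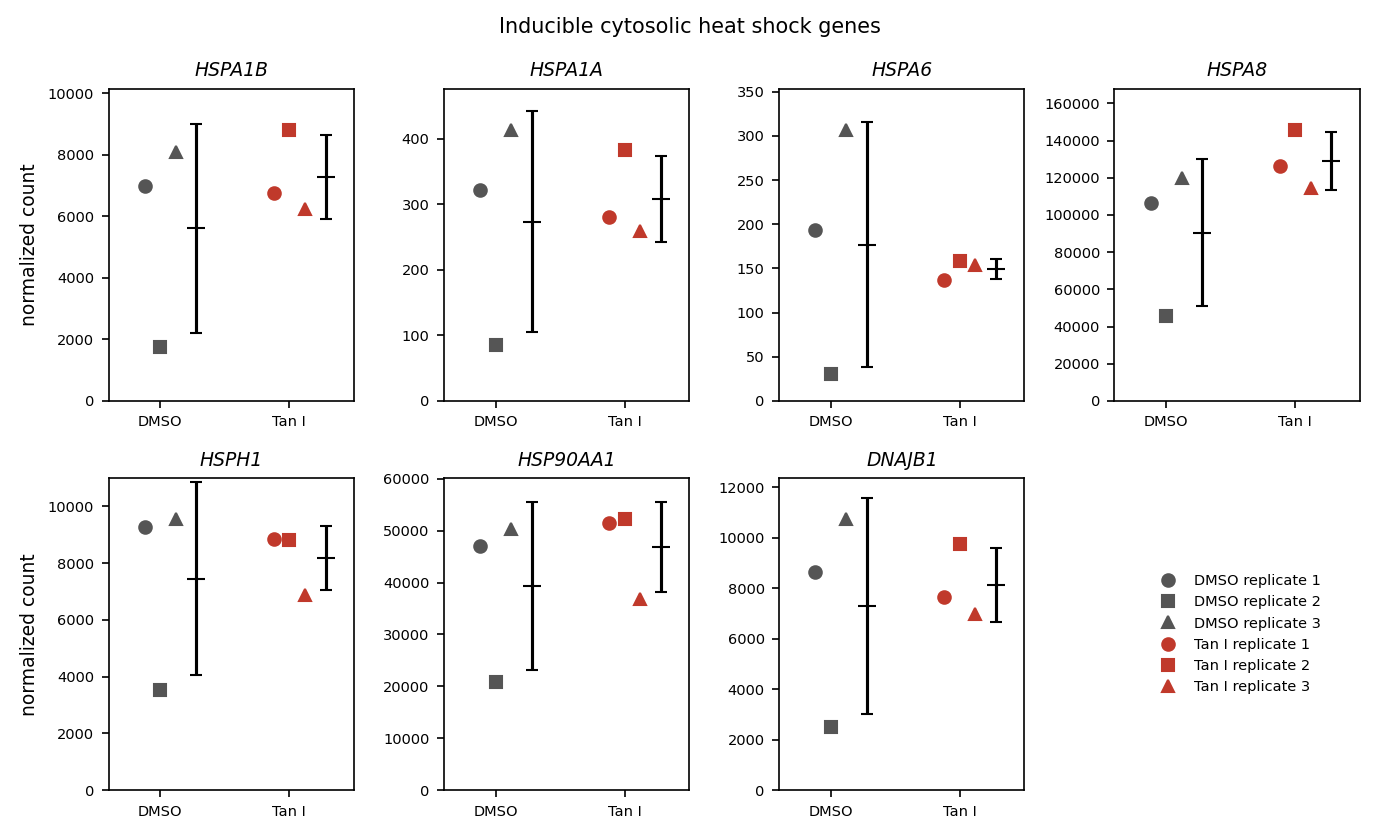
Normalized counts per library (vertical axes, from 0) of the group of 7 cytosolic heat shock genes, with DMSO in gray and Tan I in red, and the mean ± SD of the 3 libraries beside the points. DMSO replicate 2 is the lowest point in every panel, at 45489 for HSPA8 against 106231 to 145883 in the other libraries.

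Among the cytosolic members that are not classed as strongly inducible, the groups were close for HSP90AB1, HSPA4, HSPA4L and HSPA14. In others, such as DNAJA1, DNAJC7 and TCP1, they were apart, as described below. HSP90AB1, the constitutive cytosolic HSP90, had 46570, 48042 and 51642 normalized counts with DMSO and 46847, 51045 and 51824 with Tan I. The groups overlapped almost fully, with a log2 fold change of 0.03 ± 0.15 (SE), which turned to -0.13 after quantile normalization and -0.03 after rescaling to the same total. HSPA4, a constitutive HSP110, had a log2 fold change of 0.10 ± 0.16 (SE) and HSPA4L one of -0.16 ± 0.15 (SE). The mean of HSPA14, a ribosome-associated HSP70, was 870 ± 52.1 normalized counts (SD, n = 3) with DMSO and 950 ± 105 with Tan I.

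Compared per kilobase of transcript, HSPA8 was the most abundant member in DMSO, at a mean of 39952 normalized counts per kilobase. HSP90AB1 followed at 19081, HSP90B1 at 14220, HSP90AA1 at 12202, HSPA5 at 10880 and HSPD1 at 8622, and the small heat shock gene HSPB1 at 6750. The Tan I means were 57010 for HSPA8, 20440 for HSP90B1, 19532 for HSP90AB1, 16559 for HSPA5 and 14522 for HSP90AA1, so the ER genes HSP90B1 and HSPA5 stood higher in this order with Tan I. The DMSO means of HSPA8 and HSP90AA1 include DMSO replicate 2, the lowest library for both, at 45489 and 20834 normalized counts, so their DMSO levels depend on it. Differences in level between genes were not tested. HSPA1A and HSPA6 were low in DMSO, at 114 and 75.1 normalized counts per kilobase. These means also include DMSO replicate 2, the lowest library for both. The level of HSPA1A is uncertain too, since reads mapping to several places were removed.

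The TRiC complex, which folds actin and tubulin, is built from 8 different subunits, and all 8 transcripts were present at similar levels, from 3013 normalized counts per kilobase for CCT6A to 5276 for CCT8 in DMSO. All 8 had a positive log2 fold change, from 0.05 for CCT2 to 0.20 for CCT8, but none passed the test. CCT2 was negative after quantile normalization (-0.018) and after rescaling to the same total (-0.0054), and CCT2 (-0.0033) and CCT4 (-0.013) were negative with the first principal component as a term. Summed over the 8 subunits, the normalized counts were 64973, 80662 and 68584 with DMSO and 68014, 76927 and 92167 with Tan I. Tan I replicate 3 was the highest and DMSO replicate 2 the next, so the subunits did not separate by treatment.

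The subunits shared an order of the libraries that was not particular to them. DMSO replicate 2 was the highest DMSO library in 7 of the 8, Tan I replicate 3 was the highest of all libraries in 7, and Tan I replicate 1 was the lowest Tan I library in all 8. Over all 79 tested members the same held for 44, 37 and 49. All of it also held for the prefoldin genes PFDN1, PFDN2, PFDN4, PFDN5, PFDN6 and VBP1. DMSO replicate 2 and Tan I replicate 3 had the highest scores on the first principal component of all tested genes, 41.1 and 71.6. How often this order held over all tested genes was not counted. CCT7 had the widest range, with 7990, 12001 and 9119 normalized counts with DMSO and 8416, 9943 and 14213 with Tan I. TCP1 was the exception, with 10584, 10493 and 10737 with DMSO and 11346, 11676 and 11620 with Tan I. Its groups did not overlap, at a log2 fold change of 0.12 ± 0.11 (SE) and an exact permutation p of 0.1, and it shares 19.3% of its exon bases with ACAT2. The median of the 8 log2 fold changes was 0.27 without DMSO replicate 2, 0.27 without Tan I replicate 1 and 0.045 without Tan I replicate 3.

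**Figure D4:**
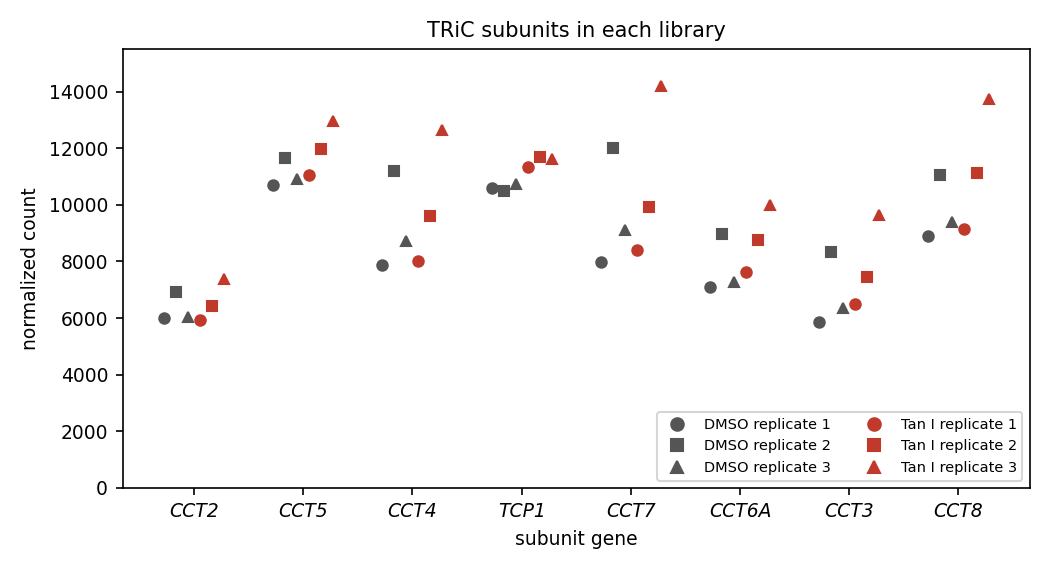
Normalized counts (vertical axis, from 0) of the 8 TRiC subunit genes in each library, with DMSO in gray and Tan I in red and the symbol shape giving the replicate. The triangle of Tan I replicate 3 is the highest point in all subunits but TCP1, and the square of DMSO replicate 2 stands above the other DMSO points in all but TCP1.

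The mitochondrial members showed no common direction, with 4 positive and 4 negative log2 fold changes among 8 and a median of 0.016. HSPD1 (HSP60), the chaperonin of the matrix, had 18362, 20306 and 19401 normalized counts with DMSO and 19097, 21201 and 23731 with Tan I. The groups overlapped, and the log2 fold change was 0.14 ± 0.14 (SE). HSPE1 (HSP10), its lid, had 820, 641 and 847 with DMSO and 880, 1148 and 944 with Tan I, all Tan I libraries lying above DMSO. Its log2 fold change of 0.37 ± 0.16 (SE) missed the threshold, with a 95% interval of -0.01 to 0.74, and was 0.24 without DMSO replicate 2, its lowest library. HSPE1 shares 34.5% of its exon bases with the read-through gene HSPE1-MOB4. HSPA9, the mitochondrial HSP70, and TRAP1, the mitochondrial HSP90, had log2 fold changes of 0.08 ± 0.18 (SE) and -0.05 ± 0.13 (SE).

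Of the remaining DNAJ genes, DNAJA1, the main cytosolic partner of HSPA8, was the closest to the threshold. It had 7152, 7808 and 7970 normalized counts with DMSO and 8261, 9332 and 11846 with Tan I, so that the groups were apart and Tan I replicate 3 was far above the rest. Its log2 fold change was 0.35 ± 0.16 (SE), with a 95% interval of -0.02 to 0.71, and DESeq2 counted it among its 6 unadjusted calls. Without Tan I replicate 3 it was 0.20. DNAJC2, DNAJC7 and DNAJC21 were also apart in the same direction, at log2 fold changes of 0.13, 0.21 and 0.09. DNAJC2 and DNAJC7 share 31.4% and 27.6% of their exon bases with other annotated genes.

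The 5 largest negative log2 fold changes belonged to DNAJC30 (-0.38 ± 0.46, SE), a second HSPA14 row with the identifier ENSG00000284024 (-0.37 ± 0.32, SE), DNAJC27 (-0.35 ± 0.20, SE), DNAJB13 (-0.30 ± 0.19, SE) and DNAJC11 (-0.30 ± 0.14, SE). None passed the test. GENCODE release 44 names the second HSPA14 row MSANTD7. DNAJB13 shares 67.2% of its exon bases with an annotated gene without a symbol. DNAJC11, a mitochondrial protein, had 721, 758 and 687 normalized counts with DMSO and 670, 593 and 511 with Tan I, with all Tan I libraries below DMSO, and it shares 44.3% of its exon bases with THAP3. DNAJC30 rested on 11.7 to 37.3 normalized counts, and its highest and lowest libraries were both in the Tan I group.

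The small heat shock gene HSPB1 (HSP27) had 4884, 4921 and 5930 normalized counts with DMSO and 4332, 6335 and 7557 with Tan I. Tan I held both the lowest and the highest value, and the log2 fold change was 0.18 ± 0.21 (SE), or 0.41 without Tan I replicate 1 and 0.0042 without Tan I replicate 3. HSPB11, which GENCODE release 44 names IFT25, averaged 801 ± 31.4 normalized counts (SD, n = 3) with DMSO and 896 ± 67.3 with Tan I, with the groups apart. HSPB6, at 6.74 to 11.6 normalized counts, and HSPA1L, at 3.91 to 9.38, were below the mean of 10 and were not tested.

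Among the nucleotide exchange factors, BAG3, which links HSP70 to autophagy and is an HSF1 target, had 608, 668 and 688 normalized counts with DMSO and 612, 612 and 872 with Tan I. BAG1 had 1086, 1909 and 1140 with DMSO and 1170, 1438 and 1814 with Tan I, with DMSO replicate 2 and Tan I replicate 3 as its highest libraries. Their log2 fold changes of 0.07 ± 0.17 (SE) and 0.12 ± 0.25 (SE) became -0.10 and -0.04 without Tan I replicate 3, and that of BAG1 was 0.38 without DMSO replicate 2, 0.28 without Tan I replicate 1 and -0.02 without DMSO replicate 1. HSF1, the main heat shock factor, had 1935, 2039 and 1990 normalized counts with DMSO and 1960, 2360 and 2310 with Tan I. Its transcript was not low in DMSO replicate 2, and HSF1 and HSF2 had log2 fold changes of 0.15 ± 0.12 (SE) and 0.12 ± 0.11 (SE).

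**Figure D5:**
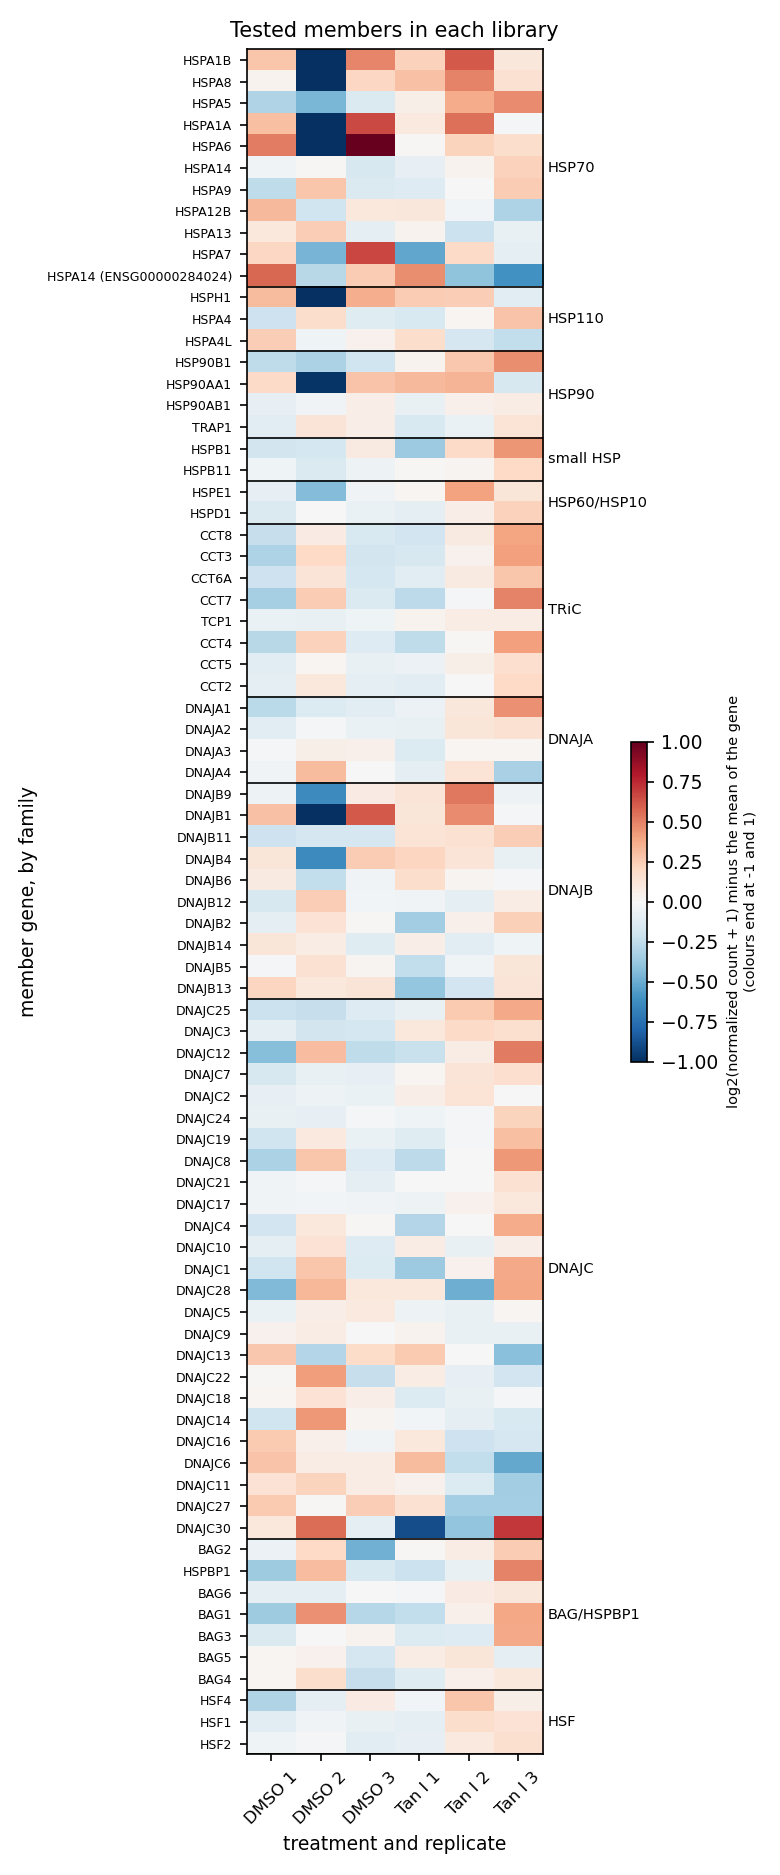
Each row is 1 of the 79 tested members and each column 1 library, with the color giving the difference of log2(normalized count + 1) from the mean of that gene over the 6 libraries, and colors ending at -1 and 1. Rows are grouped by family and ordered within it by log2 fold change. The dark blue cells of DMSO replicate 2 mark HSPA1B, HSPA8, HSPA1A, HSPA6, HSPH1, HSP90AA1 and DNAJB1, and the red cells of Tan I replicate 3 run through most TRiC subunits.

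Genes that work with the members were taken from 5 lists. Of 20 ER folding and unfolded protein response genes that are not members, 3 passed the unadjusted threshold, all higher in Tan I, beside 1.32% of all genes called higher, and 18 had a positive log2 fold change with a median of 0.18. CRELD2, an ER stress-induced factor, had 2292, 2317 and 2441 normalized counts with DMSO and 2841, 3399 and 3483 with Tan I, at a log2 fold change of 0.46 ± 0.12 (SE). PDIA4, a protein disulfide isomerase, had 4412, 5232 and 5109 with DMSO and 5434, 6396 and 7072 with Tan I, at 0.35 ± 0.14 (SE). MANF, a secreted ER stress-induced factor, had 2574, 3755 and 2999 with DMSO and 3667, 5233 and 7039 with Tan I, at 0.74 ± 0.25 (SE). The groups were apart for CRELD2 and PDIA4 and overlapped for MANF, and in 6 of the 20 every Tan I library lay above DMSO, beside 3.92% of all genes. Each of the 3 had an adjusted limma p of 0.999.

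The other 4 lists held no gene past the threshold. The median log2 fold change was 0.11 in 18 HSP90 co-chaperones, 0.17 in 9 prefoldin and TRiC cofactor genes and 0.06 in 11 genes of mitochondrial folding and quality control. Of 19 HSF1 target genes, 12 of which are members, 18 were positive with a median of 0.24, and without DMSO replicate 2 this was 12 with a median of 0.090. DMSO replicate 2 was the lowest library in 8 of these 19, 7 of them members already described, beside 16.0% of all genes. It was at or under 0.5 times the lowest other library in 4, all members, beside 1.03% of all genes. Without DMSO replicate 2, the medians of the HSP90 co-chaperones, the prefoldin and TRiC cofactors and the mitochondrial genes were 0.22, 0.34 and 0.15.

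With the score on the first principal component as a covariate, more members passed. At the unadjusted threshold these were 15 (19.0%), 13 higher and 2 lower, beside 8.86% of all genes in either direction. Among the 13 were HSPA8 (0.77), HSPA1B (0.86), HSP90AA1 (0.52), HSPH1 (0.45) and DNAJB4 (0.29), all with DMSO replicate 2 as their lowest library. Without that library, and with no covariate, their log2 fold changes were 0.19, -0.07, -0.07, -0.21 and -0.096. The other members called higher here stayed positive without that library. After adjustment, 4 members were called higher, which is 5.06% of the members beside 0.782% of all genes. They were DNAJB11 (0.34 ± 0.06, SE, adjusted p = 0.0175), HSP90B1 (0.47 ± 0.08, SE, adjusted p = 0.0181), HSPA5 (0.57 ± 0.10, SE, adjusted p = 0.0185) and DNAJC3 (0.31 ± 0.06, SE, adjusted p = 0.0326), the 4 ER members called without the covariate. The score was estimated from the same values that were then tested, so these p-values may be too small and cannot be read as error rates. DMSO replicate 2 had a score of the opposite sign to the other DMSO libraries.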

How the data were processed

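RNA-seq reads of NB4 cells were, per the study's methods, aligned by the authors to GRCh38 with STAR, stripped of reads mapping to several places, counted per gene with featureCounts and tested with DESeq2. The versions, the annotation release and the strand setting are not given in the sources used here. The authors deposited 1 table of 18625 genes whose per-library signal values are normalized counts, that is, counts divided by 1 size factor per library. Its other columns hold the authors' own comparison (mean, log2 fold change, standard error, score, and deposited p-value and adjusted p-value) and were not used. A step worth 1 read was fitted for each library, starting from its smallest nonzero value or a whole fraction of it. Dividing each deposited value by this step gave whole reads in 100% of cases, to a tolerance of 0.001. These totalled 21502760 to 31679138 per library.

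Values were tested as log2(normalized count + 1) with limma 3.58.1 (R 4.3.3, eBayes with its intensity trend) and no term but treatment, after leaving out genes whose mean was under 10, so that 16887 remained. A fold change on this scale understates that of low genes. Genes were called at an unadjusted or a Benjamini-Hochberg adjusted p no higher than 0.05 where the log2 fold change was 0.25 or more in size. Single members were compared by an exact two-sided permutation test. Alternatives were pseudocounts of 0.1 and 10, no filter, a filter at 50, quantile normalization, rescaling to the same total, no variance trend, edgeR 4.0.16 and DESeq2 1.42.0 on the recovered reads, a replicate block, the first principal component as a covariate and each library left out. The tests were tried on simulated reads first.

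The members and lists were chosen with earlier results of these data known. Genes named were each member past the unadjusted threshold, the 5 largest changes in each direction and fixed representatives of each family. The others named were chosen after their values were seen, as were the compartment and inducible groups. Promoters came from RefSeq (GRCh38.p14), positions, exon overlap and transcript lengths from GENCODE release 44.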

Additional observations from a re-analysis of the deposited data

How the results depend on the processing

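Of 85 values of the 5 called members under the alternatives, 72 stayed past the unadjusted threshold, 13 did not and 0 reversed. Among the 38 named members, 26 of 645 values changed sign, most of them near 0 or without DMSO replicate 2. HSPA6 reversed to -0.70 without DMSO replicate 2, its values running from -0.70 to 0.93 (without DMSO replicate 3) with single libraries left out. The count of members called without adjustment, 5 of 79 in limma, was 15 once the first principal component was a covariate and ran from 1 (without Tan I replicate 2) to 12 (without Tan I replicate 1) with single libraries left out. With adjustment it was 0, and 4 with that covariate. Over all genes the unadjusted count was 408, 1496 with the covariate and 160 (without Tan I replicate 2) to 1496 (without Tan I replicate 1) with single libraries left out. Genes of the 5 related lists numbered 3, and 5 after rescaling to the same total, 8 in DESeq2, 5 with the replicate block, 14 with the covariate, and 1 to 15 with single libraries left out. The members' median log2 fold change, 0.11, was 0.037 with the covariate, 0.053 after quantile normalization or rescaling, and 0.025 to 0.17 with single libraries left out. The cause of these shifts was not tested.

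Deviations from the group means correlated between libraries with the same number at 0.75, -0.09 and -0.45 for replicates 1, 2 and 3, so the numbers were not taken to pair the libraries. With the replicate block, 4 members and 348 genes were called without adjustment, and DNAJC3 no longer passed. DNAJC3 also did not pass after rescaling to the same total (0.24), nor DNAJC25 without the variance trend (0.38). Depth ran from 21502760 to 31679138 reads, and 3 libraries a group limit the precision.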

Other observations

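The low level in DMSO replicate 2 extended to genes that are not chaperones. Among tested genes with a mean of at least 1000 normalized counts, 9 that are no members were at or under 0.5 times the lowest other library there, and they are given as values chosen after they were seen. SNORD14E, a small nucleolar RNA gene that lies within HSPA8, had 2269, 324 and 2710 normalized counts with DMSO and 2514, 3772 and 1698 with Tan I. The immediate early genes DUSP1, NR4A1, FOS, EGR1, JUN and IER5 were lower in DMSO replicate 2 than in DMSO replicates 1 and 3 by 5.43-fold, 4.40-fold, 4.03-fold, 3.33-fold, 3.27-fold and 2.63-fold. PPP1R15A, which encodes a regulatory subunit of the phosphatase of eIF2-alpha, and the histone gene HIST2H2BE were lower by 3.69-fold and 3.01-fold.

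Of the 174 tested genes with this pattern, 5 were members and 169 were not.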
